A study of Mus musculus with 8 samples.

Results

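The 10 genes described here encode ligands, receptor chains, the transcription factor and the feedback inhibitor of interleukin-6 (IL-6) family signalling: Il6, Lif, Clcf1, Il6ra, Il11ra1, Osmr, Lifr, Il6st, Stat3 and Socs3. They were chosen by gene name, and each matched 1 row of the 43346 genes in the deposited count table. RNA came from MC3T3 cells, a mouse line of osteoblast precursors that can deposit and mineralize a bone-like matrix. All 8 cultures were kept for 7 days in the supplements that support mineralization, 100 ug/mL ascorbic acid and beta-glycerophosphate at 10 mM. In the 4 LLC_CM libraries the culture medium held 25% medium conditioned for 48 hours, without serum, by LLC1, a mouse Lewis lung carcinoma line. The 4 libraries named NCM are read here as the vehicle controls by elimination, since the labels do not explain that abbreviation or say what the vehicle was. Only a single cell line, in culture, was examined, and nothing in the labels says that the 4 libraries of a group were separate cultures. The p-values therefore reflect the spread of these libraries, which may be technical.

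As background, the cytokines of this family act through receptor complexes that contain gp130, the product of Il6st. IL-6 first binds the chain encoded by Il6ra, and interleukin-11 binds that encoded by Il11ra1, whereas leukemia inhibitory factor (Lif) signals through the Lifr chain paired with gp130, and oncostatin M through Osmr or Lifr paired with gp130. Janus kinases on these chains phosphorylate STAT3, which moves to the nucleus and switches on target genes including Socs3, whose product in turn dampens gp130 signalling. In bone, cytokines of the family act on osteoblasts and osteocytes and influence osteoclast formation.

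With conditioned medium, Osmr rose while Lifr fell, Stat3 and Socs3 rose, and the ligand genes Il6 and Lif moved in opposite directions. Osmr was 5.14-fold higher in LLC_CM (log2 fold change 2.36 ± 0.10, SE) and Lifr was 1.92-fold lower (-0.94 ± 0.10), while Socs3 was 3.40-fold higher (1.76 ± 0.07). By edgeR's quasi-likelihood test, with p-values adjusted by Benjamini-Hochberg and a threshold of 0.05, 6 of the 10 genes rose (Il6, Il11ra1, Osmr, Il6st, Stat3 and Socs3), 2 fell (Lif and Lifr) and 2 did not pass (Clcf1 and Il6ra). Over all 14991 genes tested, 36.90% were called, 18.80% as higher and 18.10% as lower. The 4 values of each group lay apart from the 4 of the other for the same 8 genes, and for 36.30% of all genes tested. The median log2 fold change of the 10 genes was 0.51, beside 0.01 over all genes tested. All 10 genes passed the filter on low counts, but Il6 passed only through the LLC_CM libraries, so it could enter the test only as a gene that was higher there.

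**Figure D1:**
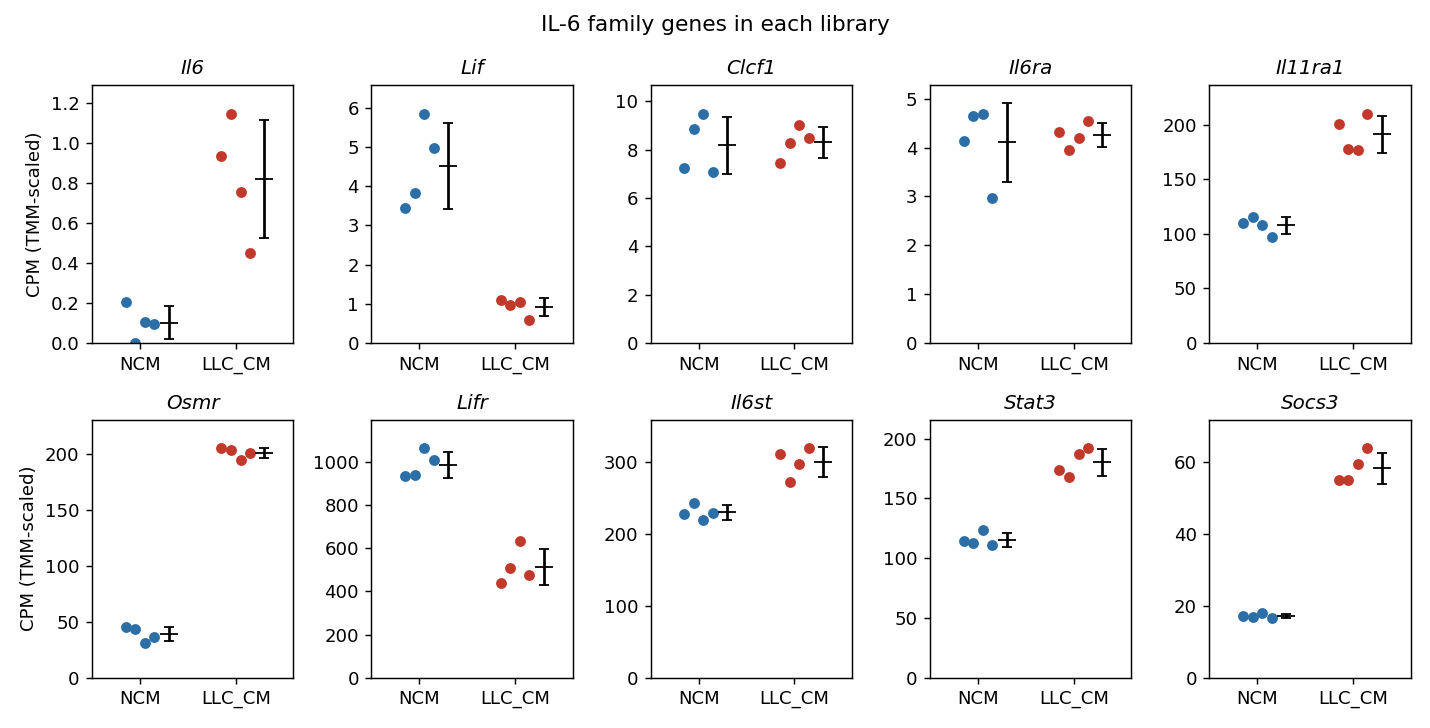
Level of each gene in CPM (reads scaled to library depth, linear axes from 0) in the 4 NCM (blue) and 4 LLC_CM (red) libraries, replicates 1 to 4 from left to right, with the mean and SD in black (n = 4). The groups lie apart for every gene but Clcf1 and Il6ra, and Lif and Lifr are the genes with lower LLC_CM values.

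Sequencing depth was even across the groups. Library totals ran from 27264212 to 35573953 assigned reads, and a gene with no read could still have been present at up to 0.110 CPM in the shallowest library (3 reads; counting error only). Of 8 osteoblast markers all were tested, 7 fell and Spp1 rose in LLC_CM, where 18.10% of all genes tested fell and 18.80% rose. The 8 markers summed to 50720 to 59810 CPM in LLC_CM and 67970 to 89830 CPM in NCM. Of 10 macrophage markers 9 were matched by name and 4 tested, of which Lyz2 (20.3 ± 5.91 against 11.5 ± 2.65 CPM, SD, n = 4) and Fcer1g (1.25 ± 0.17 against 0.427 ± 0.132 CPM) were higher in LLC_CM. Csf1r (log2 fold change -0.48 ± 0.28, SE) and Cd68 (0.12 ± 0.22) did not pass the edgeR test (adjusted p = 0.205 and 0.711). The matched macrophage markers summed to 18.7 to 32.5 CPM in LLC_CM and 11.7 to 17.4 CPM in NCM, most of it Lyz2. Itgam and Tyrobp had no read in any library and Ptprc, the pan-leukocyte marker CD45, had none in LLC_CM and 4 over NCM. The 5 adipocyte markers summed to 9.63 to 16.5 CPM in LLC_CM and 3.18 to 5.06 CPM in NCM, nearly all of it Fabp4, with Cidec at no read and Plin1 at 1 read in all. Endothelial, epithelial and lymphocyte markers each summed to at most 0.329 CPM in any library. The part of macrophage or adipocyte marker genes in the results below was not tested. In bulk RNA, fewer cells with a transcript and less of it per cell cannot be told apart.

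Among the ligand genes, Il6 rose from the edge of detection. Il6 (ENSMUSG00000025746, chromosome 5, 30013161 to 30019968, forward strand, in the mm10 table) gave 29, 31, 27 and 15 reads in LLC_CM and 6, 0, 3 and 3 reads in NCM, or 0.933, 1.15, 0.756 and 0.448 CPM against 0.205, 0, 0.106 and 0.0946 CPM. Every LLC_CM library lay above every NCM library, although 3 of the NCM libraries were at 3 reads or fewer. The fitted log2 fold change was 2.94 ± 0.52 (SE, adjusted p = 3.5e-04). Because Il6 passed the low-count filter only through LLC_CM, that p-value is not separate support for a rise. The ratio of summed reads, 102 against 12 and scaled for depth, was 7.85 (exact 95% interval for counting error 4.31 to 15.7).

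Lif encodes leukemia inhibitory factor, and it moved the other way. Lif (chromosome 11, 4257557 to 4272514, forward strand) stood at 1.09, 0.961, 1.04 and 0.597 CPM in LLC_CM and at 3.44, 3.82, 5.86 and 4.98 CPM in NCM. The groups did not overlap, and the lowest control library lay above the highest LLC_CM library. Lif was 4.90-fold lower in LLC_CM (log2 fold change -2.29 ± 0.23, SE, adjusted p = 1.4e-06). Per kilobase of the gene model, a scale on which genes can be compared, Lif stood above Il6 in all 4 NCM libraries (0.792 to 1.35 against 0 to 0.188 CPM per kb) and below it in all 4 LLC_CM libraries (0.137 to 0.252 against 0.412 to 1.05 CPM per kb). The size of the LLC_CM gap depends on the length used, although the order of the means did not change. With the longest annotated transcript the LLC_CM means were closer, 0.229 for Lif and 0.350 for Il6. In reads alone, Lif had 117 over LLC_CM and Il6 had 102.

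Clcf1 encodes cardiotrophin-like cytokine factor 1, a secreted ligand of the family. Clcf1 (chromosome 19, 4214238 to 4223490, forward strand) had 7.44, 8.28, 9.01 and 8.48 CPM in LLC_CM and 7.26, 8.85, 9.495 and 7.09 CPM in NCM, so the groups overlapped throughout. Its log2 fold change was 0.02 ± 0.12 (adjusted p = 0.901), with a 95% interval of the ratio from 0.849 to 1.22. In the GENCODE M21 annotation 8.2% of its exonic length is shared with another gene model on the same strand.

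Most other ligands of the family were scarce. Of the 9 other ligands and partners listed, 7 had too few reads to be tested. Cntf, which encodes ciliary neurotrophic factor, averaged 1.83 ± 0.18 CPM in LLC_CM and 1.92 ± 0.38 CPM in NCM (SD, n = 4) and did not pass (adjusted p = 0.814). Those 7 genes held 18 reads over LLC_CM and 21 over NCM, most of them from Il11, which encodes interleukin-11 (13 and 18 reads). Osm, the gene of oncostatin M, had no read in any library, which allows up to 0.110 CPM in the shallowest.

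Upstream sequence is shown for Il6, Lif and Socs3, the genes of the 10 in which a searched motif was found. Windows covered the 250 bases before each RefSeq transcript start in GRCm38.p6, and 9 of the 10 genes had 11 windows in the RefSeq table; Clcf1 was not matched. Both strands were searched for TTCNNNGAA (the palindromic STAT motif), GGNNTTTCC (a kappaB-type motif), TGANTCA (AP-1) and TTGCNNAA (C/EBP), none of whose matches overlapped. These are held by 7.02%, 4.93%, 6.75% and 9.56% of the 32851 windows of all genes. The Il6 window (chr5:30012864-30013113, forward strand) had AP-1, C/EBP and kappaB-type matches, in that order, in capitals:
Il6: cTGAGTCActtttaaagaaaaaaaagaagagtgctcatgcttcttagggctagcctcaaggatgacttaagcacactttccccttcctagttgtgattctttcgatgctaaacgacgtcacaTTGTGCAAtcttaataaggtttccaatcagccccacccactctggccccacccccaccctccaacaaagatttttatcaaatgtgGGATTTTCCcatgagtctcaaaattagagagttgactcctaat
The Socs3 window held the only STAT match among the 11, shown in capitals with its flanks (chr11:117969502-117969530, reverse strand, 154 to 146 bases before the start), and the Lif window held an AP-1 match (chr11:4257330-4257356, forward strand):
Socs3: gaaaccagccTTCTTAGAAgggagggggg
Lif: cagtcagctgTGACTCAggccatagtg
A match describes the letters only. The windows of Osmr, Stat3, Lifr, Il6st, Il6ra and Il11ra1 held none of these motifs. Several windows lie inside the gene as GENCODE M21 draws it and do not stand for the region before its longest transcript. All 250 bases of the Osmr window, 247 of those of 1 Il11ra1 window and 77 of those of the Socs3 window are exonic there. The Socs3 match itself lies within the Socs3 span given below, so it is upstream of the RefSeq start and not of the longer model. Its place relative to those exonic bases is not given here.

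The receptor chains changed in both directions, and Osmr changed most. Osmr encodes the oncostatin M receptor chain. Osmr (ENSMUSG00000022146, chromosome 15, 6813577 to 6874969, reverse strand) had 205, 203, 194 and 201 CPM in LLC_CM and 45.5, 43.1, 31.2 and 36.4 CPM in NCM. The LLC_CM libraries sat close together, far above the highest control (adjusted p = 1.3e-10).

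Lifr, the LIF receptor chain, had the highest level per kilobase of the 10 genes in NCM. Lifr (ENSMUSG00000054263, chromosome 15, 7129559 to 7197489, forward strand) had 440, 510, 631 and 477 CPM in LLC_CM and 935, 939, 1063 and 1009 CPM in NCM. Groups did not overlap, and LLC_CM replicate 3 was the highest treated library without reaching the controls (adjusted p = 2.4e-06).

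Il11ra1, the interleukin-11 receptor alpha chain, and Il6st, the shared gp130 chain, were both moderately higher. Il11ra1 (chromosome 4, 41699989 to 41769474, forward strand) had 201, 178, 177 and 210 CPM in LLC_CM and 110, 116, 108 and 96.8 CPM in NCM. That gave a log2 fold change of 0.83 ± 0.07 (adjusted p = 3.0e-07). Its longest transcript matched Gm13305 over 98.9% of its length at 98.6% identity and Il11ra2 over 28.3% at 98.1%. Both copies had no reads in any library, so reads that fit more than 1 copy may be missing from the Il11ra1 values. Il6st (chromosome 13, 112464070 to 112510086, forward strand) had 310, 272, 297 and 319 CPM in LLC_CM and 228, 243, 219 and 229 CPM in NCM. It was 1.30-fold higher (log2 0.38 ± 0.06, adjusted p = 2.0e-04), the smallest change of the 8 genes called.

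Il6ra, the chain that binds IL-6 itself, was low in both groups. Il6ra (chromosome 3, 89869324 to 89913162, reverse strand) had 4.31, 3.96, 4.20 and 4.54 CPM in LLC_CM and 4.13, 4.64, 4.70 and 2.96 CPM in NCM. All LLC_CM values fell inside the range of the controls, in which replicate 4 was the lowest. The log2 fold change was 0.05 ± 0.16 (adjusted p = 0.822), and the 95% interval of the ratio was 0.823 to 1.31. The table's Il6ra model holds 3343 bases where the longest GENCODE M21 transcript holds 8639, so reads from the rest of the longer transcript may not have been counted. The Il6 model is likewise shorter, at 1087 against 2343 bases.

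Among other receptor chains of the family, only Cntfr, the ciliary neurotrophic factor receptor chain, was tested. Cntfr averaged 1.24 ± 0.25 CPM in LLC_CM and 1.40 ± 0.05 CPM in NCM (SD, n = 4; adjusted p = 0.557). Il11ra2 and Il31ra had no read in any library, and Il27ra had 5 over each group.

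**Figure D2:**
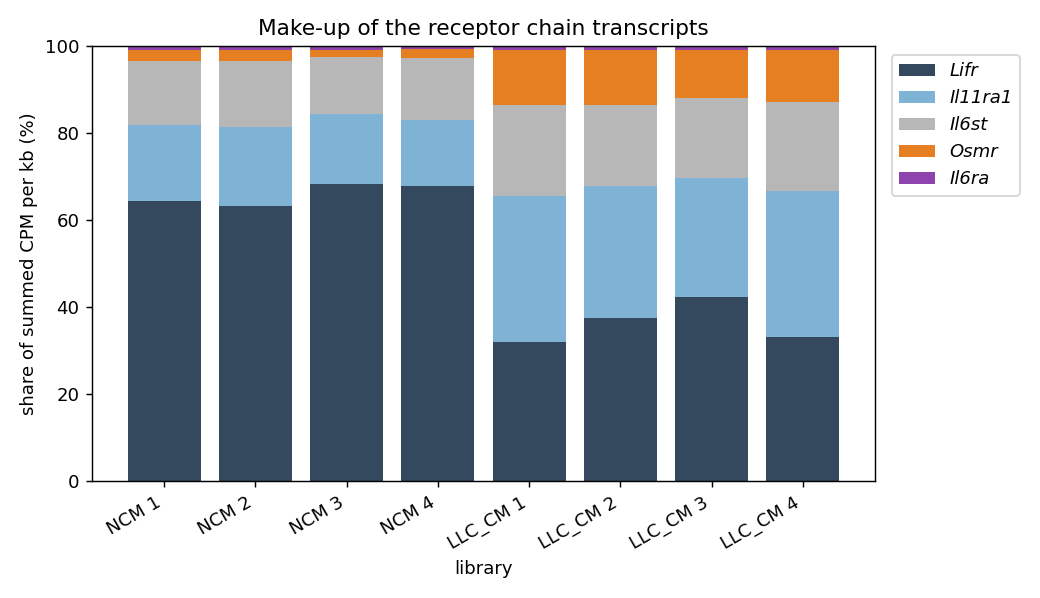
Share (%) that each of the 5 receptor chain genes took of their summed level in CPM per kilobase, 1 bar per library. Lifr took 63.3% to 68.2% in NCM and 31.9% to 42.2% in LLC_CM, and Osmr 1.71% to 2.67% and 11.1% to 12.8%.

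Shares of the 5 receptor transcripts describe the same changes on a scale per kilobase and were not tested. Summed over the 5 chains, the level per kilobase was 131 to 145 CPM per kb in LLC_CM and 141 to 151 CPM per kb in NCM, which overlap. Within that sum Lifr held 36.2% ± 4.72 in LLC_CM and 65.9% ± 2.49 in NCM (SD, n = 4). Il11ra1 held 31.2% ± 3.03 and 16.7% ± 1.36, Il6st held 19.6% ± 1.26 and 14.3% ± 0.90, and Osmr held 12.1% ± 0.78 and 2.23% ± 0.43. Il6ra stayed below 1% in every library. The shares depend on the length used: with the longest annotated transcript in place of the table's length, Osmr held 18.5% ± 0.96 in LLC_CM and 4.01% ± 0.72 in NCM, and Lifr 26.8% ± 4.04 and 57.5% ± 2.80.

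Ratios of counts within a library carry no library scaling. For each read of Lifr there were 0.465, 0.399, 0.308 and 0.421 reads of Osmr in LLC_CM and 0.0486, 0.0458, 0.0294 and 0.0361 in NCM. The log2 ratio was -1.34 ± 0.25 against -4.67 ± 0.33 (SD, n = 4), a difference of 3.33 or 10.05-fold. Its two-sided exact permutation p was 0.0286, the smallest that the 70 splits of 4 and 4 allow. Adjusted over the 3 ratios tested, the permutation p was 0.0429. Osmr rose and Lifr fell, each without overlap between the groups, so their ratio had to separate the groups. That p-value is therefore not support separate from the changes of the 2 genes. The ratio of Il6ra to Il6st was lower in LLC_CM by 0.31 on the log2 scale, at -6.14 ± 0.03 against -5.83 ± 0.31, which did not pass (exact permutation p = 0.143, adjusted 0.143). Without NCM replicate 4, the lowest of the controls, that difference was -0.46 and passed (adjusted exact permutation p = 0.0286, the smallest that the remaining splits allow). That library was the only control not above every LLC_CM library. Leaving it out therefore separates the groups, and this p-value is not separate support for a difference.

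**Figure D3:**
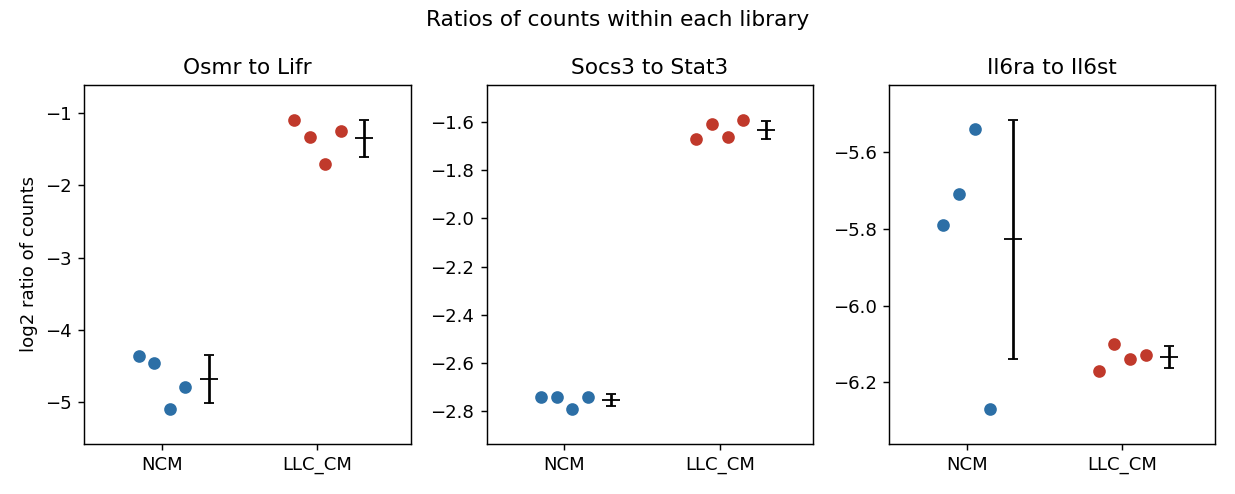
Log2 ratio of read counts for 3 gene pairs in each library (blue NCM, red LLC_CM, replicates 1 to 4 from left to right), with the mean and SD in black (n = 4). The groups lie apart for Osmr to Lifr and for Socs3 to Stat3, and overlap for Il6ra to Il6st, where NCM replicate 4 is the lowest of all 8.

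Within the groups, the library with the highest Lifr also had the lowest Osmr, which was replicate 3 in both LLC_CM (631 and 194 CPM) and NCM (1063 and 31.2 CPM). Among the 4 NCM libraries Lif and Lifr ranked in the same order and Osmr in the reverse order. Neither held in LLC_CM, where replicate 1 had the highest Lif (1.09 CPM) and the lowest Lifr (440 CPM). There Osmr was not the exact reverse of Lifr either, as both were higher in replicate 2 than in replicate 4. This is a description of 4 libraries in each group, and it was not tested. All genes of a library share its depth and handling.

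Stat3 and its feedback inhibitor Socs3 both rose, Socs3 more. Stat3 (ENSMUSG00000004040, chromosome 11, 100885098 to 100939540, reverse strand) had 174, 168, 187 and 192 CPM in LLC_CM and 115, 113, 124 and 111 CPM in NCM. The lowest LLC_CM library exceeded the highest control, and Stat3 was 1.56-fold higher (log2 0.64 ± 0.06, adjusted p = 7.2e-07). Its exons share 0.8% of their length with Stat5a on the other strand.

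Socs3 (ENSMUSG00000053113, chromosome 11, 117966079 to 117970047, reverse strand), the gene with the STAT match shown above, had 54.8, 54.8, 59.2 and 63.7 CPM in LLC_CM. In NCM it had 17.1, 16.8, 17.9 and 16.6 CPM. The controls lay close together and every LLC_CM library stood well above them (adjusted p = 5.8e-11). There were 0.315, 0.327, 0.317 and 0.332 reads of Socs3 per read of Stat3 in LLC_CM and 0.149, 0.149, 0.145 and 0.150 in NCM. That ratio rose by 1.12 on the log2 scale, or 2.17-fold, with a two-sided exact permutation p of 0.0286 and 0.0429 adjusted over the 3 ratios.

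Ordered by level per kilobase, the 10 genes spanned a wide range in both groups. In NCM the order of mean levels was Lifr (95.5 CPM per kb), Il11ra1 (24.1), Il6st (20.7), Stat3 (12.1), Socs3 (5.92), Osmr (3.22), Clcf1 (2.20), Il6ra (1.23), Lif (1.04) and Il6 (0.0932). Neighbours overlapped across the NCM libraries only for Il11ra1 with Il6st and for Il6ra with Lif. In LLC_CM it was Lifr (49.8 CPM per kb), Il11ra1 (42.8), Il6st (26.98), Socs3 (20.1), Stat3 (18.9), Osmr (16.6), Clcf1 (2.24), Il6ra (1.27), Il6 (0.755) and Lif (0.212). There Lifr overlapped Il11ra1 and Socs3 overlapped Stat3. With the length of the longest annotated transcript, Il11ra1 came first in LLC_CM and Osmr the third.

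**Figure D4:**
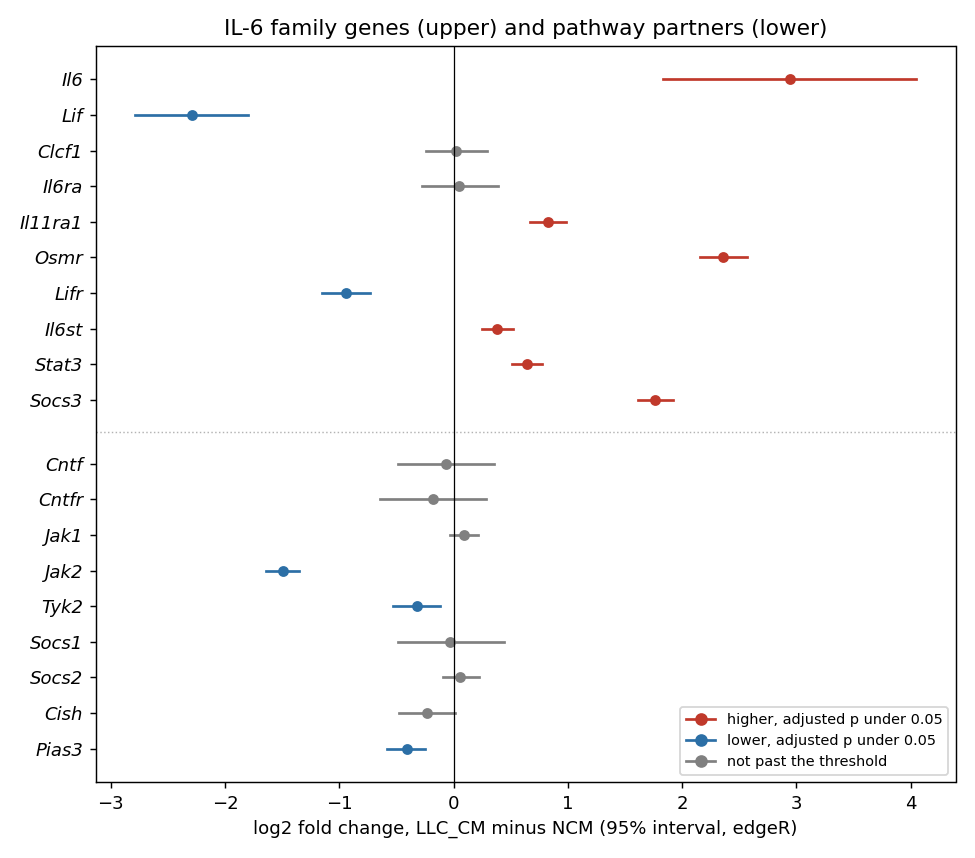
Log2 fold change of LLC_CM over NCM with its 95% interval (edgeR, 4 libraries per group) for the 10 genes (upper block) and 9 pathway partners (lower block), red where higher, blue where lower and grey where the adjusted p did not pass. Il6 has the widest interval, 1.83 to 4.05, and Jak2 falls by 1.49 while Jak1 stays near 0.

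Of the Janus kinases, other Stat genes and adaptors of the pathway, 13 of 14 were tested, 4 rose and 2 fell. Over all genes tested, 18.80% rose and 18.10% fell. The median log2 fold change of the list was 0.01, as over all genes tested. Jak2, a kinase that associates with gp130 and many cytokine receptors, averaged 92.9 ± 7.71 CPM in LLC_CM against 262 ± 10.4 CPM in the controls and fell (SD, n = 4; log2 -1.49 ± 0.07, adjusted p = 1.7e-10). Tyk2, a related kinase, fell by 0.32 ± 0.10 (adjusted p = 0.0163). Jak1, the kinase most tied to gp130 signalling, had a log2 fold change of 0.09 ± 0.06 and did not pass (adjusted p = 0.238, named after its values were seen). Jak3, the kinase of receptors that use the common gamma chain, rose by 0.66 ± 0.12. Stat2, a factor of interferon signalling, rose by 0.57 ± 0.09, and the adaptor Shc1, also named after its values were seen, by 0.26 ± 0.06.

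Of the negative regulators other than Socs3, all 14 were tested, 1 rose and 2 fell, and the median log2 fold change was -0.02. For comparison, 36.90% of all genes tested were called, 18.80% as higher and 18.10% as lower. Pias3, which encodes an inhibitor of STAT3 binding to DNA, fell by 0.41 ± 0.08 (adjusted p = 6.0e-04), Socs7 fell by 0.42 ± 0.08 (adjusted p = 6.6e-04) and the phosphatase gene Ptpn2 rose by 0.20 ± 0.07 (adjusted p = 0.033). Cish, a feedback inhibitor mainly of STAT5 signalling, had a log2 fold change of -0.23 ± 0.12 (adjusted p = 0.132). Socs1 and Socs2, relatives of Socs3 named after their values were seen, had log2 fold changes of -0.03 ± 0.22 and 0.06 ± 0.07 and did not pass (adjusted p = 0.946 and 0.534).

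Of 5 genes tied to the shedding of receptors such as the IL-6 receptor, none rose and 1 fell. The share called over all genes tested was 36.90%. Timp3, an inhibitor of sheddases, fell by 0.30 ± 0.10 (adjusted p = 0.0244), although its groups overlapped. Adam10 and Adam17, the sheddases, had log2 fold changes of -0.13 ± 0.06 and 0.10 ± 0.06, and Rhbdf1, a cofactor of Adam17, of 0.03 ± 0.14, none of which passed (adjusted p = 0.124, 0.184 and 0.89).

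Of 27 textbook STAT3 targets other than Socs3, 23 were tested, 11 rose, 3 fell and 9 did not pass. Among all genes tested, 18.80% rose and 18.10% fell. The median log2 fold change of the list was 0.30 against 0.01 over all genes tested. The risen genes include Saa3 and Lrg1, which passed the filter only through LLC_CM, and several targets of this list also respond to other transcription factors. The 4 with the smallest adjusted p are acute phase genes. Serpina3n, a protease inhibitor gene, had 375 to 440 CPM in LLC_CM and 0.567 to 1.42 CPM in NCM and rose by 8.78 ± 0.15 on the log2 scale (adjusted p = 4.4e-14). Hp, which encodes the hemoglobin-binding protein haptoglobin, had 1936 to 2320 CPM in LLC_CM and 113 to 159 CPM in NCM (log2 3.93 ± 0.11, adjusted p = 1.8e-12).

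Lcn2, the gene of the iron-siderophore binding protein lipocalin 2, had 38.5 to 57.7 CPM in LLC_CM and 0.565 to 1.40 CPM in NCM (log2 5.81 ± 0.20, adjusted p = 1.1e-10). Saa3, a serum amyloid A gene, had 938 reads in all LLC_CM libraries together and 1 in NCM; scaled for depth, the ratio was 866.5 (exact 95% interval for counting error 155 to 34260). The 3 genes that fell were Pim1, a survival kinase, by 1.14 ± 0.14 (adjusted p = 7.9e-06), Ccnd1, cyclin D1, by 0.62 ± 0.06 (adjusted p = 1.0e-06), and Pim3 by 0.33 ± 0.10 (adjusted p = 0.0165). The 4 untested targets, Icam1, Steap4, A2m and Fgg, held 46 reads over LLC_CM and 5 over NCM.

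**Figure D5:**
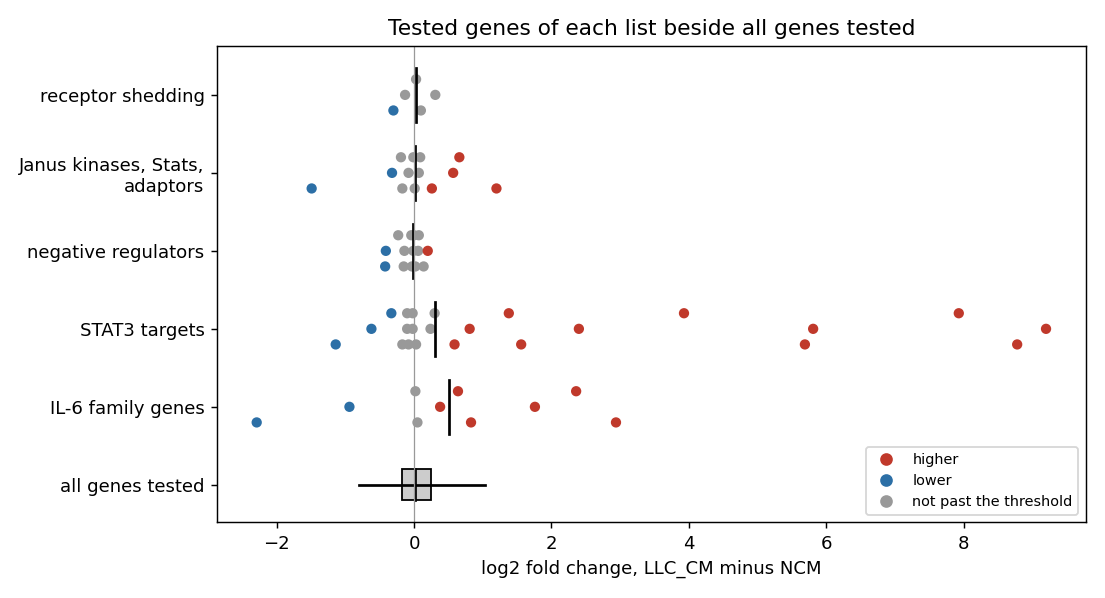
Log2 fold changes (LLC_CM minus NCM) of the tested genes of each list, 1 point per gene (red higher, blue lower, grey not past an adjusted p of 0.05), with the list median as a black line. The lowest row shows all 14991 genes tested by their 5th to 95th percentile (-0.80 to 1.03, line), quartiles (-0.18 to 0.25, box) and median. The IL-6 family genes run from -2.29 (Lif) to 2.94 (Il6), and the negative regulators from -0.42 (Socs7) to 0.20 (Ptpn2).

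Across the 8 libraries, the genes whose log2 CPM was most like that of Stat3, among 9964 with a mean of at least 5 CPM, were Tuba1c (Pearson r = 0.9979), a tubulin gene, Plxnd1 (r = 0.9974), a semaphorin receptor gene, and Aebp1 (r = 0.9969). Those most like Socs3 were Pla2g15 (r = 0.9995), a lysosomal phospholipase gene, Igfbp4 (r = 0.9985), an insulin-like growth factor binding protein gene, and Rab3il1 (r = 0.9984). All 6 differ between the groups, rising by 0.62 to 2.30 on the log2 scale, and the libraries of a group share their medium, so these values describe the difference between the groups more than the spread within them.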

How the data were processed

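Poly(A) RNA libraries were made from 200 ng of RNA with 12 PCR cycles and a kit that does not mark strand, per the labels' protocols. The authors deposited raw read counts per gene, and the submitters' processing notes name CASAVA, STAR, featureCounts and mm10, whose versions are not given in those notes. Counts were fitted with edgeR 4.0.16 (limma 3.58.1, R 4.3.3): filterByExpr (10 counts at the median depth in 4 libraries), TMM factors, robust quasi-likelihood F test, no covariate, Benjamini-Hochberg adjustment over 14991 genes, threshold 0.05. The SE of a log2 fold change was its size over the square root of F. CPM uses TMM-scaled totals, and levels per kilobase use the table's gene length. Ratios were compared by exact permutation of libraries. Library pairs within a group differed by at least 7.07 in chi-square per degree of freedom, so none was a repeat deposit. On simulated counts for LLC_CM against NCM (14991 genes), the fit recovered 28% of 1.25-fold, 82% of 1.5-fold, 86% of 2-fold and 100% of 4-fold changes (50 genes each) and called 5 unchanged genes. A far larger share of genes, 36.90%, was called in the data, so these rates need not hold there. Overlaps and copies come from GENCODE M21 and blastn 2.17.0, and upstream sequences from RefSeq (GRCm38.p6).

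The 10 genes and the gene lists were chosen with earlier results of these data known. Named from each list were up to 4 genes of at least 1 CPM with the smallest adjusted p and those called against the list's direction. Some genes that this rule names are not reported here. Likeness to Stat3 and Socs3 was the Pearson r of log2 CPM across the 8 libraries. Alternatives were other scaling factors, filters, tools (DESeq2 1.42.0, limma-voom), covariates, a threshold of 0.01, transcript lengths, and each library left out.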

Additional observations from a re-analysis of the deposited data

Results flagged for a closer look

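Of 28 sets of 4 libraries examined (each gene, each ratio and the total counts, in each group), 1 held a library far from the other 3 by Dixon's criterion, where chance marks about 1 set in 20. The log2 ratio of Socs3 to Stat3 in NCM replicate 3 was -2.79, beside -2.74 in each of the other NCM libraries. The gap is small next to the difference of 1.12 between the groups.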

How the results depend on the processing

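The 6 higher and 2 lower calls held in each of the 18 alternatives run, except that Il6 was not tested at 1 CPM in 4 libraries, which left 5 higher. Log2 fold changes ranged from 2.55 to 3.49 for Il6, 2.26 to 2.43 for Osmr, -1.06 to -0.88 for Lifr, -2.41 to -2.14 for Lif and 1.71 to 1.79 for Socs3, and those of Il6ra (-0.08 to 0.12) and Clcf1 (-0.05 to 0.10) took either sign and never passed. Under a replicate block (paired by number), the same 6 and 2 genes were called, and the Osmr to Lifr and Socs3 to Stat3 ratios kept their differences of 3.33 and 1.12 but not their calls (adjusted p = 0.188 for both in an exact sign-flip test), since 4 pairs are too few for that test to pass. Deviations of same-numbered libraries correlated at 0.12, -0.05, 0.27 and -0.06, beside -0.33 to 0.24 for libraries of unlike number. These few values do not show a pairing by number and cannot exclude it. Leaving out each library gave 3.19 to 3.45 for Osmr to Lifr, 1.11 to 1.13 for Socs3 to Stat3, and -0.46 (without NCM replicate 4, the only such setting that passed) to -0.21 for Il6ra to Il6st. Levels per kilobase depend on the transcript length used, most for Il6ra, Osmr and Il6. Depth limits Il6 most, with 12 reads over NCM.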
